A study of Mus musculus with 18 samples.

Results

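The 10 genes described here encode surface proteins that promote or restrain T cell activation: Ctla4, Icos, Cd28, Btla, Lag3, Havcr2, Cd200, Cd83, Cd5 and Izumo1r. They were taken as a named list, which was chosen with earlier results of these data known. Each gene was read from the probe sets that the chip annotation assigns to that gene alone. All 10 were measured among 18193 genes, by 13 probe sets, and no filter on low values removed any of them. Of these genes 8 had 1 probe set, Icos had 3 and Cd28 had 2. For Icos and Cd28 the most variable probe set across the arrays stood for the gene, a choice that favours a probe set that differs between groups, and the others are given beside it.

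Sorted CD4 T cells gave RNA for 18 Affymetrix arrays in 7 groups. The donors were B6;129 mice heterozygous at Foxp3, which encodes the master transcription factor of regulatory T (Treg) cells, and the cells came fresh from spleen and lymph nodes without treatment. One Foxp3 allele of each mouse was tagged with human CD2 (hCD2) and the other, which was wild type in every mouse, with green fluorescent protein (GFP). Foxp3 lies on the X chromosome, so a Treg cell uses 1 of the 2 alleles and shows its tag. Treg cells that showed hCD2 carried the A384T substitution of Foxp3 (3 arrays), the I363V substitution (3 arrays), the R397W substitution (3 arrays) or no substitution (WT hCD2, 2 arrays, numbered 3 and 4). Wild-type Treg cells that showed GFP came from the mice with the A384T allele (A384T-mouse WT GFP, 3 arrays) and from mice with no mutant allele (WT GFP, 2 arrays). Conventional CD4 T cells with neither tag (Tconv, 2 arrays) came from mice with no mutant allele. In every mouse with a mutant allele, wild-type Treg cells were therefore also present. Age and sex of the mice are not given in the sources used here, though 2 alleles of an X-linked gene mark the donors as female. The labels do not tell whether the arrays of a group stem from different animals. A p therefore reflects only how these samples vary.

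T cells need a second signal beside the antigen receptor, and some of the receptors described here set its strength. CD28 and its relative ICOS deliver a positive signal, CD28 on binding CD80 or CD86 and ICOS on binding the ICOS ligand. CTLA4 binds the same ligands as CD28 more tightly, holds CD28 signalling back, and on Treg cells removes CD80 and CD86 from antigen-presenting cells. BTLA, LAG3 and TIM-3 (the product of Havcr2) are coinhibitory receptors, CD5 damps signalling from the antigen receptor, and CD200 is a surface ligand that restrains myeloid cells through its receptor. CD83 stabilises MHC class II and CD86 at the surface of dendritic cells and is also found on activated T cells and Treg cells. Izumo1r encodes folate receptor 4, a surface marker of Treg cells in the mouse that is known on the egg as Juno. Foxp3 binds DNA through a forkhead domain, in which A384T, I363V and R397W lie, and acts together with NFAT and other factors.

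In the RefSeq annotation of mouse assembly GRCm38.p6, Cd28, Ctla4 and Icos follow one another on chromosome 1, and Btla and Cd200 are neighbours on chromosome 16. The 250 bases before the gene start are printed for 2 members, Ctla4, which was far above Tconv in every Treg group, and Havcr2, which was lower in 2 of the mutants. Both are from RefSeq (GRCm38.p6), on the + strand and read 5′ to 3′, at chr1:60908775-60909024 for Ctla4 and chr11:46454681-46454930 for Havcr2. Capitals mark, on either strand, the forkhead core TGTTT, the NFAT core GGAAA and the AP-1 motif TGANTCA.
Ctla4: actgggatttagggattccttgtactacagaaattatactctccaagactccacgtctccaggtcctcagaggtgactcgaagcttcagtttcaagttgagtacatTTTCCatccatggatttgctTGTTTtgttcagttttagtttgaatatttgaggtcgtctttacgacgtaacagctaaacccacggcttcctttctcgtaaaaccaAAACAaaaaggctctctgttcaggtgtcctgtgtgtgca
Havcr2: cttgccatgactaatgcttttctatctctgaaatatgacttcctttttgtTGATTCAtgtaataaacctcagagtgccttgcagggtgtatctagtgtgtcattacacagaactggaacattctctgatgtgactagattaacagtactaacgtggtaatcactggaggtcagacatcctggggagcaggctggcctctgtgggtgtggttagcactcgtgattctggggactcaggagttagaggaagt
The Ctla4 window held TGTTT at 124 and 39 bases before the start and GGAAA at 144. The Havcr2 window held TGANTCA at 200 bases and neither core. Over 32851 windows of the same length, 46.4% held TGTTT, 55.6% held GGAAA and 6.75% held TGANTCA. Windows were matched for 6 members (Ctla4, Btla, Havcr2, Cd200, Cd5 and Izumo1r), of which 5 held TGTTT, 2 held GGAAA and 1 held TGANTCA. The longer forkhead motif TGTTTAC was in 0 of the 6 and in 3.17% of all windows. The motifs do not overlap in these windows, and a match of letters is no evidence of a bound site.

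The authors' values are log2 expression after subtraction of the Tconv average, which is 0 for every probe set. The level of a gene is therefore lost, values compare samples within a gene and not genes with each other, and the 2 Tconv values are always equal in size and opposite in sign. The sort labels held in the data: Foxp3 averaged 7.34 in A384T, 6.86 in I363V, 6.64 in R397W, 7.57 in A384T-mouse WT GFP, 7.19 in WT hCD2 and 7.27 in WT GFP cells, on the same scale, and the group means of Cd4 lay between -0.50 and 0.08. The mean of 4 Treg marker genes was 5.14 to 5.20 on the A384T arrays, 4.55 to 4.63 on the I363V arrays and 4.43 to 4.50 on the R397W arrays, against 5.11 to 5.24 on the WT hCD2 arrays. Array 2 of I363V and array 2 of R397W stood apart from the other arrays of their groups in early response genes: the mean of that list was 2.21 on I363V array 2, with 1.26 and 1.07 on the other I363V arrays, and 0.68 on R397W array 2, with -0.33 and -0.27 on the other R397W arrays. In bulk RNA, fewer cells that express a gene and less RNA per cell cannot be told apart.

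**Figure D1:**
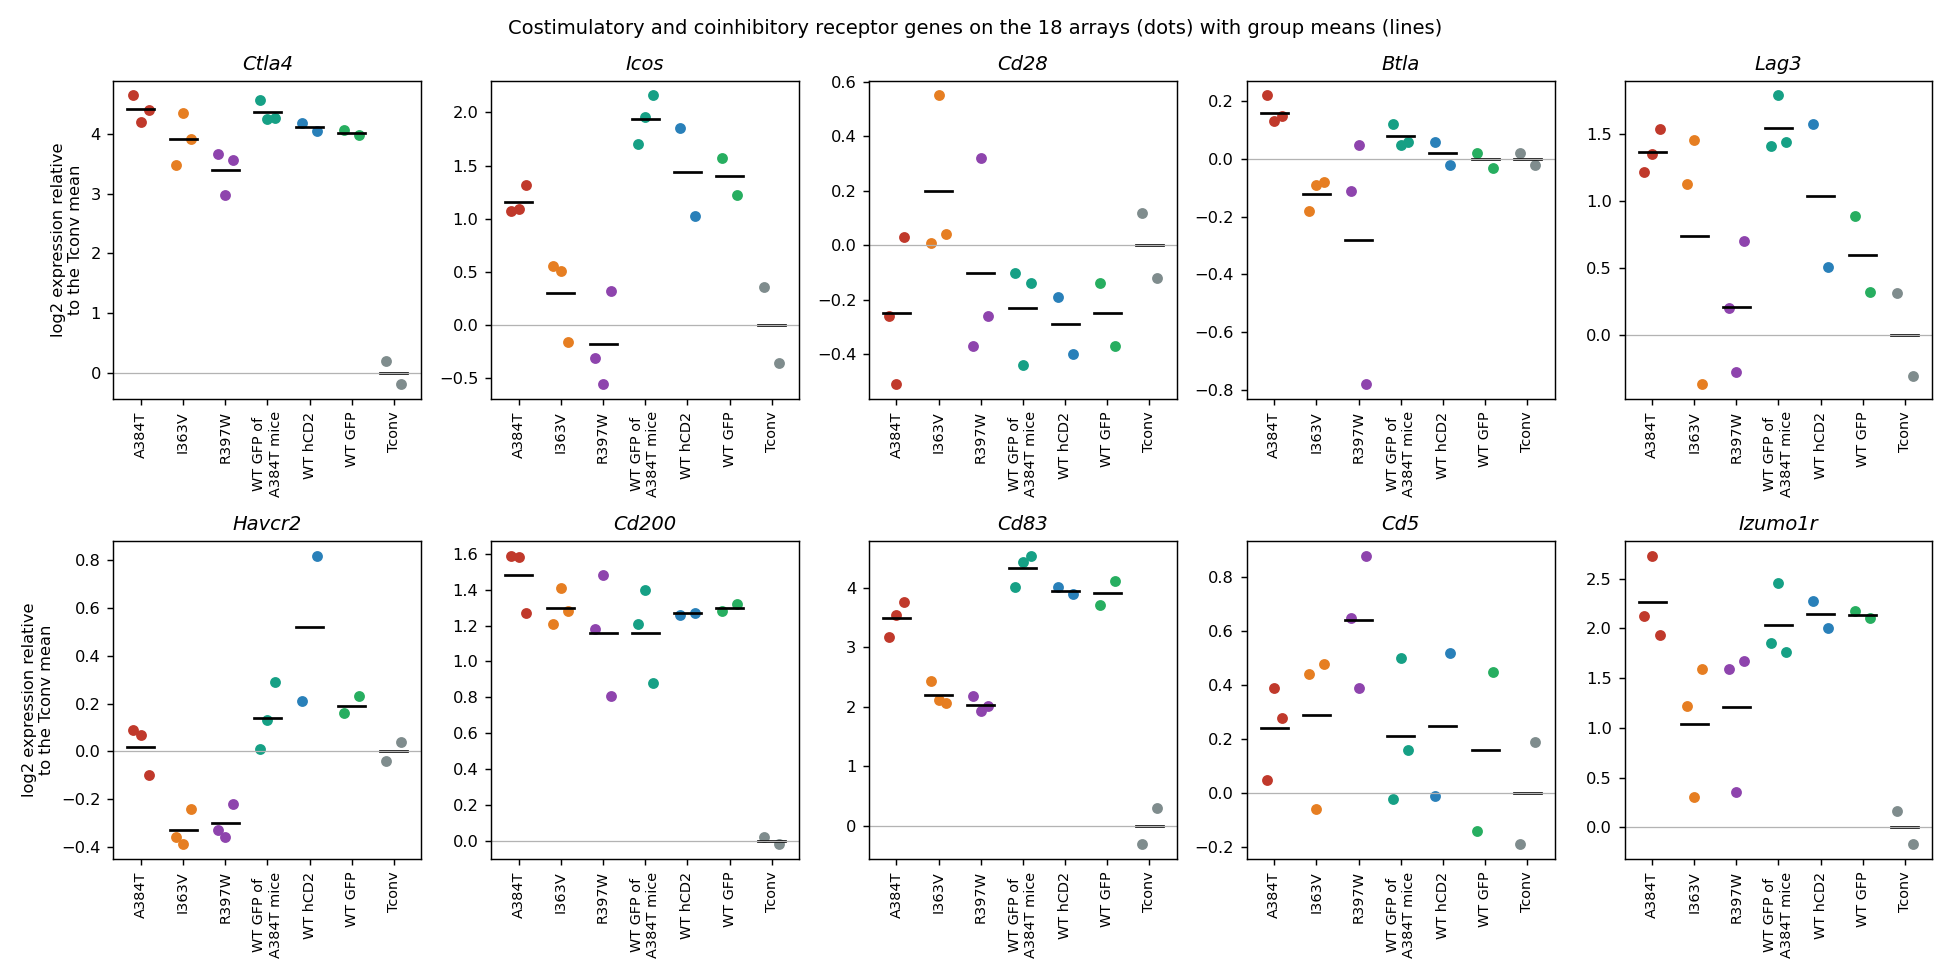
Values of the 10 genes on each of the 18 arrays (dots) with group means (lines); the vertical axis is log2 expression relative to the Tconv mean and has its own range in each panel. Ctla4 and Cd83 lay between 1.93 and 4.64 on every Treg array, while Btla, Cd28 and Cd5 stayed between -0.78 and 0.88 on all arrays.

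The first comparison asked which of these receptors distinguish wild-type Treg cells from conventional T cells. Of the 10 genes 5 were higher in the 4 wild-type Treg arrays (WT hCD2 and WT GFP together) at an adjusted p under 0.05 and none was lower, against 3.81% of all genes called higher and 5.84% called in either direction. The median difference of the 10 genes was 1.05 and that of all genes -0.01. Because the list was chosen with earlier results of these data known, its excess over all genes is no independent test. The genes that rose were Ctla4, Cd83, Izumo1r, Icos and Cd200.

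Ctla4, the inhibitory receptor for CD80 and CD86, read 4.18 and 4.04 on the WT hCD2 arrays and 4.06 and 3.98 on the WT GFP arrays, against 0.19 and -0.19 on the Tconv arrays. All 4 Treg arrays lay close together and far from Tconv, a difference of 4.07 ± 0.23 (SE), or 16.7-fold (limma, adjusted p = 4.44e-08). Cd83 read 4.01 and 3.89 on the WT hCD2 arrays and 3.71 and 4.11 on the WT GFP arrays, against -0.31 and 0.31 on the Tconv arrays. Its difference was about as large, at 3.93 ± 0.21 or 15.2-fold (adjusted p = 1.95e-08). Izumo1r read 2.27 and 2.0 on the WT hCD2 arrays and 2.17 and 2.10 on the WT GFP arrays, against 0.17 and -0.17 on the Tconv arrays. The groups were well apart, by 2.13 ± 0.38 or 4.39-fold (adjusted p = 0.00264).

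Icos, the inducible relative of Cd28, read 1.85 and 1.02 on the WT hCD2 arrays and 1.57 and 1.22 on the WT GFP arrays, against 0.36 and -0.36 on the Tconv arrays. The Treg arrays did not overlap with Tconv but were spread, and the difference was 1.42 ± 0.29 (adjusted p = 0.00821). Cd200 read 1.26 and 1.27 on the WT hCD2 arrays and 1.28 and 1.32 on the WT GFP arrays, against 0.02 and -0.02 on the Tconv arrays. Its wild-type Treg arrays were nearly equal, and it was 1.28 ± 0.17 higher (2.43-fold, adjusted p = 0.000187). Without Tconv array 2, which left 1 Tconv array, the difference was 1.05 for Icos and 1.97 for Izumo1r, and neither was called. The Izumo1r difference thus stayed near the 2.13 of all arrays.

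The other 5 genes did not pass the test between wild-type Treg cells and Tconv. Lag3, a coinhibitory receptor that binds MHC class II, read 1.58 and 0.51 on the WT hCD2 arrays and 0.89 and 0.32 on the WT GFP arrays, against 0.31 and -0.31 on the Tconv arrays. These arrays were too spread for a call, with a difference of 0.82 and a 95% interval of -0.10 to 1.74. Havcr2 differed by 0.35 ± 0.14 (adjusted p = 0.22) and was called, at 0.51 with an adjusted p of 0.0176, without WT hCD2 array 3. The differences of Cd28 (-0.27 ± 0.21), Btla (0.01 ± 0.16) and Cd5 (0.21 ± 0.23) had 95% intervals that included 0.

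The second comparison set each Foxp3 mutant against wild-type Treg cells with the same hCD2 tag. The 3 comparisons share the 2 WT hCD2 arrays, so an unusual value there enters all of them. None of the 10 genes was called in A384T cells, against 0.28% of all genes, and limma gave 1 member and 1469 genes at an unadjusted p under 0.05. In I363V cells 2 members were lower, Cd83 and Havcr2, against 0.682% of all genes called lower and 0.912% called in either direction. In R397W cells 3 members were lower, Cd83, Icos and Havcr2, against 1.55% of all genes called lower and 2.26% called in either direction. No member was called higher in any of the 3 mutants. The median difference of the 10 genes was 0.08 in A384T, -0.25 in I363V and -0.77 in R397W cells, and that of all genes was -0.02 in each.

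Cd83 read 3.18, 3.55 and 3.77 on the A384T arrays, 2.43, 2.11 and 2.06 in the I363V group and 2.18, 1.93 and 2.01 on the R397W arrays, against 4.01 and 3.89 on the WT hCD2 arrays. Every mutant array lay below both WT hCD2 arrays, and the I363V and R397W arrays lay below all A384T arrays as well. The difference from WT hCD2 was -1.75 ± 0.22 in I363V (3.36-fold lower, adjusted p = 0.0011) and -1.91 ± 0.22 in R397W cells (3.76-fold lower, adjusted p = 0.000375). In A384T cells it was -0.45, with a 95% interval of -0.92 to 0.02 (adjusted p = 0.641).

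Icos read 1.07, 1.09 and 1.32 on the A384T arrays, 0.55, 0.51 and -0.16 in the I363V group and -0.31, -0.56 and 0.32 on the R397W arrays, against 1.85 and 1.02 on the WT hCD2 arrays. The R397W arrays lay within the range of Tconv or just below it, and the I363V arrays reached slightly above Tconv. The A384T arrays were within the WT hCD2 range on this most variable probe set, but not on the others. The difference was -1.62 ± 0.31 in R397W cells (3.07-fold lower, adjusted p = 0.0121). Without WT hCD2 array 3, the higher of the 2, it was -1.20 with an adjusted p of 0.2. In I363V cells the difference of -1.14 ± 0.31 did not pass (adjusted p = 0.134).

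The other probe sets of Icos ranked the mutants in the same order. Probe set 1421930_at averaged -0.11 in I363V and -0.32 in R397W cells, against 1.36 in WT hCD2 cells, and probe set 1436598_at averaged 0.02 and -0.25 in the same mutants, against 0.97 in WT hCD2 cells. In I363V cells both passed the test, with -1.47 ± 0.29 (adjusted p = 0.0337) and -0.95 ± 0.16 (adjusted p = 0.0136). The mean of the 3 probe sets was -1.18 ± 0.12 in I363V cells (adjusted p = 0.000153), so whether Icos was called there depended on the probe set. On all 3 probe sets Icos was lower in both I363V and R397W cells than in A384T cells by their group means. The A384T arrays read 0.34 to 1.01 on 1421930_at, against 1.10 to 1.62 for WT hCD2. On 1436598_at they read 0.39 to 0.63, against 0.91 to 1.03. The A384T differences of -0.59 ± 0.29 (adjusted p = 0.663) and -0.44 ± 0.16 (adjusted p = 0.5) did not pass.

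**Figure D2:**
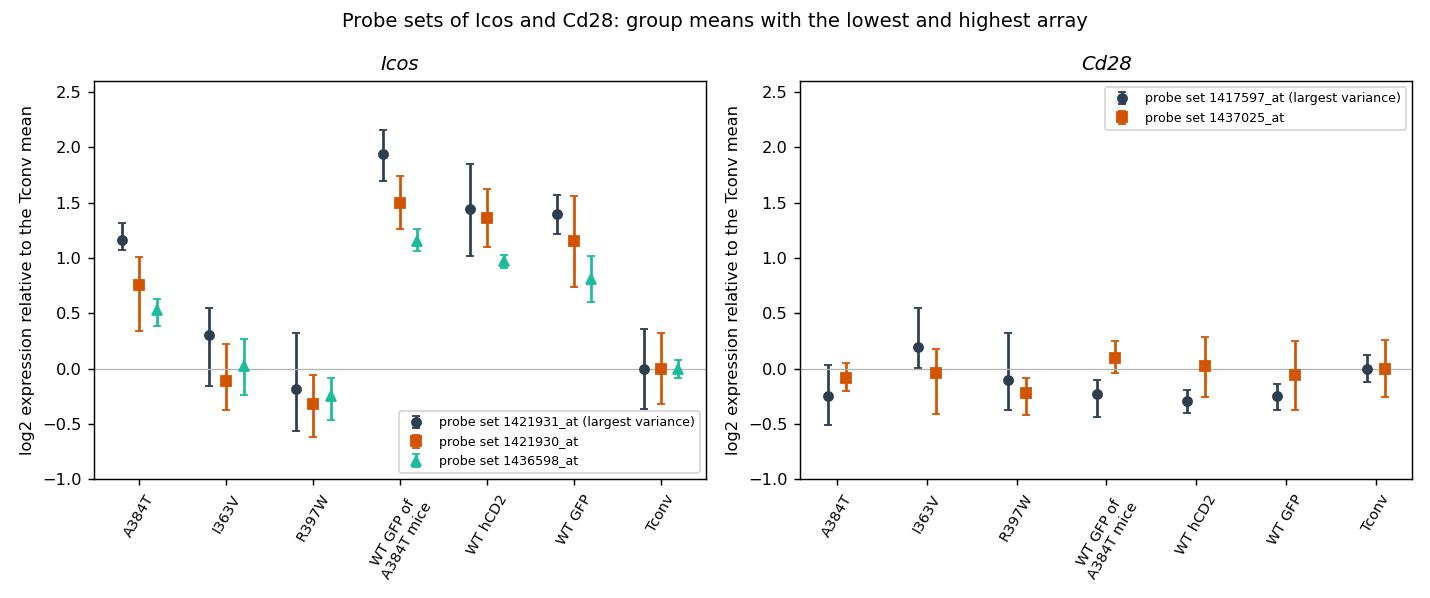
Group means of each probe set of Icos and Cd28 (markers), with bars from the lowest to the highest array of the group; the vertical axis is log2 expression relative to the Tconv mean. The 3 Icos probe sets gave I363V and R397W means between -0.32 and 0.30, against 0.97 to 1.44 for WT hCD2, while all Cd28 means lay between -0.29 and 0.20.

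Havcr2, which encodes the coinhibitory receptor TIM-3, read 0.09, 0.07 and -0.10 on the A384T arrays, -0.36, -0.39 and -0.24 in the I363V group and -0.33, -0.36 and -0.22 on the R397W arrays, against 0.21 and 0.82 on the WT hCD2 arrays. The I363V and R397W arrays lay below all arrays of the other 5 groups, Tconv included. The difference from WT hCD2 was -0.84 ± 0.15 in I363V (adjusted p = 0.014) and -0.82 ± 0.15 in R397W cells (adjusted p = 0.00879). WT hCD2 array 4 was higher than any other array, and without it the differences were -0.53 (adjusted p = 0.257) and -0.51 (adjusted p = 0.135). Without I363V array 1 the adjusted p of the I363V difference was 0.0518. In A384T cells the difference was -0.50 ± 0.15 (adjusted p = 0.314), and without WT hCD2 array 3 it was -0.81 and passed (adjusted p = 0.0467).

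Havcr2 and Cd83 are also expressed by dendritic and myeloid cells. The mean of 13 marker genes of those cells was -0.63 to -0.25 on the A384T arrays, -0.42 to -0.38 on the I363V arrays and -0.79 to -0.55 on the R397W arrays, against -0.18 and -0.17 on the WT hCD2 arrays. None of the 13 was called in A384T or I363V cells, and 1, Lyz2, was lower in R397W cells (-2.66 ± 0.35, adjusted p = 0.000849). The mean of the list moved in the direction of Havcr2 and Cd83, and its part in the differences was not tested. Since levels are lost, these values do not tell whether the markers were expressed at all.

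**Figure D3:**
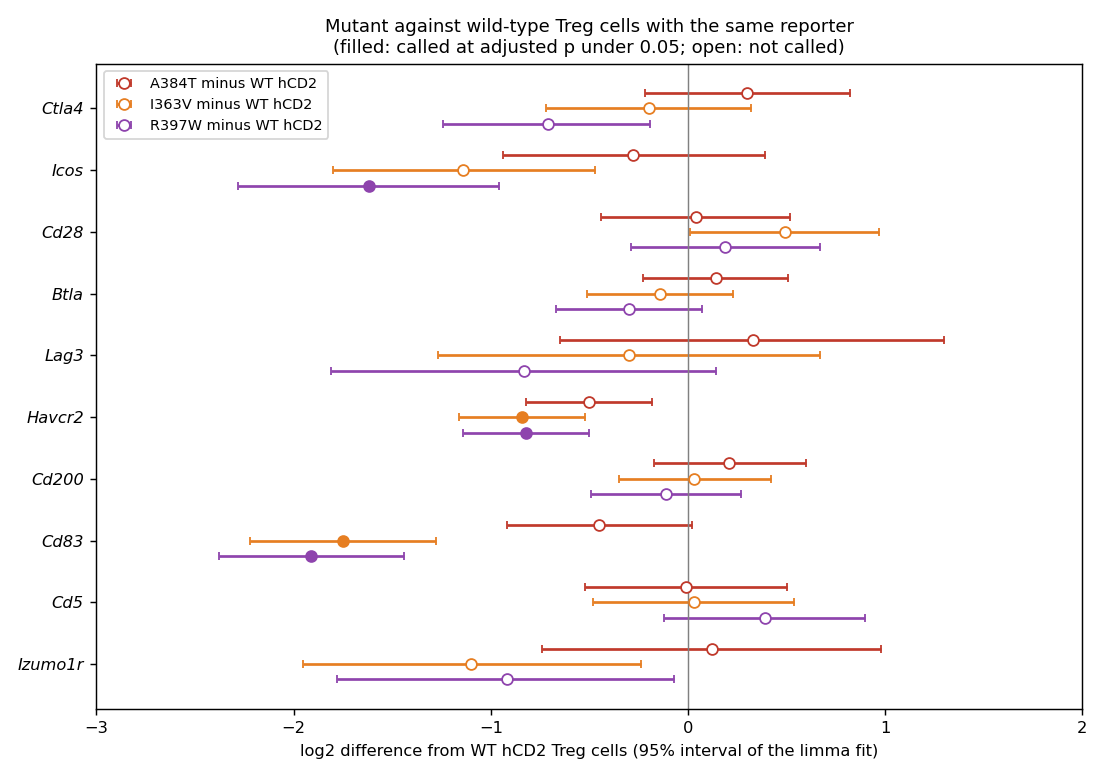
Difference of each mutant from WT hCD2 Treg cells in log2 units (circles) with the 95% interval of the limma fit (bars); filled circles passed an adjusted p of 0.05. Cd83 and Havcr2 were lower in I363V and R397W cells and Icos in R397W cells, while no A384T difference passed.

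Ctla4 stayed far above Tconv in the mutants. It read 4.64, 4.19 and 4.40 on the A384T arrays, 3.47, 4.35 and 3.91 in the I363V group and 3.66, 2.97 and 3.56 on the R397W arrays, against 4.18 and 4.04 on the WT hCD2 arrays. All 3 R397W arrays lay below both WT hCD2 arrays, the I363V arrays overlapped with them, and the A384T arrays lay above them. No difference passed: it was 0.30 (95% interval -0.22 to 0.82) in A384T, -0.20 (-0.72 to 0.32) in I363V and -0.71 (-1.24 to -0.19, adjusted p = 0.195) in R397W cells.

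Izumo1r read 2.12, 2.73 and 1.93 on the A384T arrays, 1.22, 0.31 and 1.59 in the I363V group and 1.59, 0.36 and 1.67 on the R397W arrays, against 2.27 and 2.0 on the WT hCD2 arrays. Every I363V and R397W array was below both WT hCD2 arrays, and array 2 of each of these mutants was much lower than the other 2. The differences were -1.10 ± 0.40 in I363V (adjusted p = 0.351) and -0.92 ± 0.40 in R397W cells (adjusted p = 0.371), which did not pass. The probe set carries the suffix by which Affymetrix marks probes that can match more than 1 transcript.

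Lag3 was the most variable of the 10 genes within groups. It read 1.22, 1.35 and 1.54 on the A384T arrays, 1.13, 1.46 and -0.37 in the I363V group and 0.20, -0.28 and 0.70 on the R397W arrays, against 1.58 and 0.51 on the WT hCD2 arrays. The mutants overlapped with WT hCD2, with pooled SD within groups of 0.56, and the difference in R397W cells was -0.83 (95% interval -1.81 to 0.14).

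Cd200, Cd28, Btla and Cd5 gave no call in any mutant against WT hCD2. Cd200 read 1.59, 1.58 and 1.27 on the A384T arrays, 1.21, 1.41 and 1.28 in the I363V group and 1.18, 1.48 and 0.81 on the R397W arrays, against 1.26 and 1.27 on the WT hCD2 arrays. Mutant and wild-type arrays of Cd200 overlapped, and its 95% intervals against WT hCD2 lay between -0.49 and 0.60. Cd5 read 0.05, 0.39 and 0.28 on the A384T arrays, 0.44, -0.06 and 0.48 in the I363V group and 0.65, 0.39 and 0.88 on the R397W arrays, against -0.01 and 0.52 on the WT hCD2 arrays. The R397W arrays of Cd5 were the highest as a group, with a difference of 0.39 ± 0.24 (adjusted p = 0.618).

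Cd28 read -0.26, -0.51 and 0.03 on the A384T arrays, 0.01, 0.55 and 0.04 in the I363V group and -0.37, 0.32 and -0.26 on the R397W arrays, against -0.19 and -0.40 on the WT hCD2 arrays. Array 2 of I363V and array 2 of R397W were the highest of the 18. Its difference in I363V cells was 0.49 ± 0.22 (adjusted p = 0.543), and its other probe set gave -0.06. Btla read 0.22, 0.13 and 0.15 on the A384T arrays, -0.18, -0.09 and -0.08 in the I363V group and -0.11, 0.05 and -0.78 on the R397W arrays, against 0.06 and -0.02 on the WT hCD2 arrays. Apart from R397W array 3, the values of Btla lay within a narrow range around 0.

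The mutants were next set against each other. Cd83 was higher in A384T than in I363V cells by 1.30 ± 0.20 (adjusted p = 0.00312), the 1 member called there, against 0.885% of all genes called higher and 1.14% called in either direction. The mean of the Icos probe sets was also higher in A384T than in I363V cells, by 0.75 ± 0.11 (adjusted p = 0.00203), while its probe set of largest variance gave 0.86 ± 0.28 (adjusted p = 0.246). Between A384T and R397W cells 3 members were called, all higher in A384T, against 2.22% of all genes called higher and 3.13% called in either direction. These were Cd83 by 1.46 ± 0.20 (adjusted p = 0.000745), Icos by 1.34 ± 0.28 (adjusted p = 0.0156) and Ctla4 by 1.01 ± 0.22 (adjusted p = 0.0208).

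Early response genes differed in the same comparison: the mean of that list was 1.15 to 1.32 on the A384T arrays, against -0.33 to 0.68 on the R397W arrays, and Jun (3.84) and Junb (1.51) were called higher in A384T. The part of this in the 3 members was not tested. The arrays of A384T and R397W did not overlap in any of these 3 genes. Nor did they overlap in Btla, Lag3, Havcr2, Cd5 and Izumo1r, which were not called. Lack of overlap therefore does not set the 3 genes apart. The calls of Ctla4 and Icos were near the threshold. That of Ctla4 was lost without A384T array 1 (0.90, adjusted p = 0.0875), without A384T array 3 (1.02, adjusted p = 0.0677) and without R397W array 2 (0.80, adjusted p = 0.0756). That of Icos was lost without A384T array 2 (1.38, adjusted p = 0.0561), without A384T array 3 (1.26, adjusted p = 0.0705) and without R397W array 2 (1.15, adjusted p = 0.0628). Btla, by contrast, passed between A384T and R397W cells without R397W array 2 (0.61, adjusted p = 0.0475). Between I363V and R397W cells no member was called, against 0.0824% of all genes, and limma gave 1 member, Ctla4, and 1550 genes at an unadjusted p under 0.05. The Cd83 difference there was 0.16, with a 95% interval of -0.26 to 0.58.

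A384T cells were also set against the wild-type GFP Treg cells of the same kind of mice, which share the animal's environment with them but not the tag. No member passed the unblocked limma fit, against 0.522% of all genes, with 2 members and 915 genes at an unadjusted p under 0.05. Those 2 members were Cd83 and Icos. Cd83 read 3.18, 3.55 and 3.77 on the A384T arrays, against 4.02, 4.43 and 4.54 on the A384T-mouse WT GFP arrays. It was lower in A384T in every pair of equal number and the groups did not overlap, with a difference of -0.83 ± 0.20 (adjusted p = 0.101). With the number as a block the difference was -0.83 ± 0.16 and passed (adjusted p = 0.0431).

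Icos read 1.07, 1.09 and 1.32 on the A384T arrays, against 1.70, 1.96 and 2.16 on the A384T-mouse WT GFP arrays. The groups did not overlap, and Icos too was lower in A384T in every pair of equal number. The difference was -0.78 ± 0.28 (adjusted p = 0.525), and the mean of the 3 probe sets gave -0.71 ± 0.11 and passed (adjusted p = 0.00496). Ctla4 read 4.64, 4.19 and 4.40 on the A384T arrays, against 4.57, 4.24 and 4.26 on the A384T-mouse WT GFP arrays, which overlapped. Lag3 read 1.22, 1.35 and 1.54 on the A384T arrays, against 1.41, 1.79 and 1.44 on the A384T-mouse WT GFP arrays, which also overlapped.

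**Figure D4:**
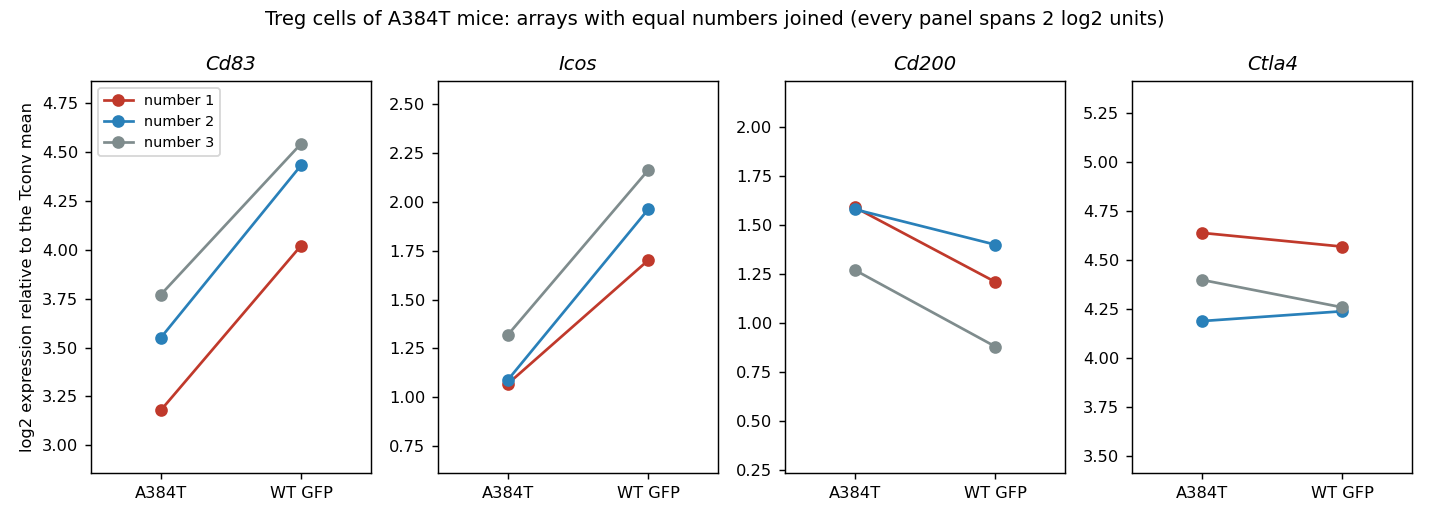
Cd83, Icos, Cd200 and Ctla4 on the A384T and A384T-mouse WT GFP arrays in log2 units relative to the Tconv mean; lines join arrays of equal number and every panel spans the same range. Cd83 and Icos were lower in A384T in all 3 pairs, Cd200 read higher in all 3 without passing the test, and the lines of Ctla4 ran in both directions.

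The tag and the host were checked with wild-type cells, with all arrays fitted as independent. Between WT hCD2 and WT GFP cells limma called 0 of 18193 genes, with 462 at an unadjusted p under 0.05, none of them a member. Between A384T-mouse WT GFP and WT GFP cells it called 0 of 18193 genes, with 473 at an unadjusted p under 0.05, again none of them a member. Lag3 had the largest member difference in the second comparison, reading 1.41, 1.79 and 1.44 in A384T-mouse WT GFP cells, against 0.89 and 0.32 in WT GFP cells. These arrays did not overlap, but the difference of 0.94 had a 95% interval of -0.03 to 1.92. Whether the difference of hCD2 from GFP cells was another in mice with the A384T allele than in mice without it was tested as an interaction. It called no member, against 0.0495% of all genes, with 1 member and 682 genes at an unadjusted p under 0.05. That member was Cd83, at -0.87 ± 0.31 (adjusted p = 1).

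Against Tconv, A384T cells showed 5 members higher, against 4.14% of all genes called higher and 6.52% called in either direction. I363V cells showed 3 members higher, against 1.48% and 2.51% of all genes, and R397W cells 3, against 1.06% and 2.02%. No member was called lower than in Tconv. The 3 comparisons share the Tconv arrays with each other and with the wild-type comparison. Ctla4 was 4.41 ± 0.24 higher in A384T, 3.91 ± 0.24 in I363V and 3.40 ± 0.24 in R397W cells. Cd83 was 3.50, 2.20 and 2.04 higher in the same mutants, with an SE of 0.22 in each. Cd200 was 1.48, 1.30 and 1.16 higher in them, with an SE of 0.18. Izumo1r was 2.26 ± 0.40 higher in A384T cells (adjusted p = 0.0025), while its differences of 1.04 in I363V and 1.21 in R397W cells did not pass (adjusted p = 0.277 and 0.203).

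Without array 2 of both I363V and R397W, an alternative chosen after seeing the data, Izumo1r was called in I363V (1.40, adjusted p = 0.0132) and in R397W cells (1.63, adjusted p = 0.00442). In R397W cells it was also called without R397W array 2 alone (adjusted p = 0.0211). Icos was 1.16 ± 0.31 higher in A384T cells than in Tconv (adjusted p = 0.037), a call lost without any 1 of the A384T arrays (1.08 to 1.21, adjusted p = 0.0726, 0.082 and 0.111) or without Tconv array 2 (0.80, adjusted p = 0.423). In I363V and R397W cells Icos differed from Tconv by 0.30 (95% interval -0.36 to 0.96) and -0.18 (-0.85 to 0.48).

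The genes most like each member were taken by Pearson's r over the 18 arrays, which span 7 groups, so a high r mostly reflects shared group means. The closest to Ctla4 were Dusp4 (0.981), Cish (0.974) and Foxp3 (0.973), and those closest to Cd83 were Itgb8 (0.98), Osbpl3 (0.975) and Myo1e (0.974). Icos was closest to Tspan3 (0.983), Cldnd1 (0.966) and Kif13b (0.961), and Izumo1r to Tnfrsf18 (0.954), Isg20 (0.944) and Cnpy2 (0.934). Tnfrsf18 encodes GITR, another receptor of Treg cells. Lag3 was closest to Lrp10 (0.975), Relb (0.957) and Zmiz2 (0.953), Cd200 to Gbp2b (0.943), and Havcr2 to Il18 (0.898), Gzmb (0.881) and Adam8 (0.863). For Cd28, Btla and Cd5, whose group means spanned 0.49, 0.44 and 0.64, the highest values were 0.913, 0.895 and 0.889. Among the members, r was 0.88 between Ctla4 and Cd200, 0.84 between Cd83 and Izumo1r and -0.73 between Cd28 and Izumo1r.

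Other genes of these pathways were read from 4 lists. Of 22 other costimulatory and coinhibitory receptors, 5 were higher and 3 lower in wild-type Treg cells than in Tconv, against 3.81% of all genes called higher and 5.84% called in either direction. The higher ones were Tnfrsf4 (OX40, 3.51), Tnfrsf9 (4-1BB, 3.28), Pdcd1 (PD-1, 2.48), Tnfrsf18 (2.21) and Slamf1 (1.73), and the lower ones Crtam (-1.99), Lair1 (-1.70) and Cd244a (-0.81). Against WT hCD2 cells, 0 of the 22 passed in A384T or R397W cells and 1 was lower in I363V cells, against 0.28% of all genes called in A384T, 2.26% in R397W and 0.912% in I363V cells. That 1 was Pdcd1, which read 1.49, 1.02 and 1.34 on the I363V arrays, against 2.46 and 2.62 on the WT hCD2 arrays. The groups were well apart, by -1.26 ± 0.25 (adjusted p = 0.0246), and in R397W cells Pdcd1 differed by -0.84 ± 0.25 (adjusted p = 0.116).

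Among 13 ligands and binding partners, Pdcd1lg2 (2.09), Cd86 (1.64) and Cd274 (0.52) were higher in wild-type Treg cells than in Tconv. The share of all genes called higher was 3.81%. Against WT hCD2 cells, 1 of the 13 was lower in A384T, 1 in I363V and 3 in R397W cells. The shares of all genes called in either direction were 0.28%, 0.912% and 2.26% in the same order. Cd86, a ligand of Cd28 and Ctla4, and Pdcd1lg2, a ligand of Pdcd1, differed between the mutants in opposite ways. Cd86 read 0.17, 0.49 and 0.53 on the A384T arrays, 1.73, 1.57 and 1.42 in the I363V group and 1.65, 1.16 and 1.37 on the R397W arrays, against 1.55 and 1.54 on the WT hCD2 arrays. The A384T arrays were the lowest of all Treg arrays. Their difference was -1.15 ± 0.16 from WT hCD2 (adjusted p = 0.00662), -1.18 ± 0.15 from I363V (adjusted p = 0.000723) and -1.0 ± 0.15 from R397W cells (adjusted p = 0.00142). Cd86 was also lower in A384T than in A384T-mouse WT GFP cells (-1.42 ± 0.15, adjusted p = 0.000372).

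Pdcd1lg2 read 1.42, 1.70 and 1.60 on the A384T arrays, 0.56, 0.47 and 0.48 in the I363V group and 0.89, 0.25 and 0.69 on the R397W arrays, against 2.10 and 2.16 on the WT hCD2 arrays. The I363V and R397W arrays lay below all A384T arrays, and the A384T arrays below both WT hCD2 arrays. The differences from WT hCD2 were -1.63 ± 0.18 in I363V (adjusted p = 0.00044) and -1.52 ± 0.18 in R397W cells (adjusted p = 0.000411), and in A384T cells -0.56 ± 0.18 (adjusted p = 0.375). Cd200r1, the receptor for Cd200, was lower in A384T than in A384T-mouse WT GFP cells (-1.10 ± 0.18, adjusted p = 0.00872) and lower in R397W than in WT hCD2 cells (-0.81 ± 0.20, adjusted p = 0.0466). Its differences from WT hCD2 were nearly as large in A384T (-0.70 ± 0.20, adjusted p = 0.256) and I363V cells (-0.68 ± 0.20, adjusted p = 0.167), without passing. Lgals3, a galectin that binds Lag3, was also lower in R397W than in WT hCD2 cells (-2.46 ± 0.58, adjusted p = 0.0389). It averaged -1.58 in A384T, -0.70 in I363V and -1.32 in R397W cells, against 1.13 in WT hCD2 cells, and only R397W was called. Its WT hCD2 arrays were spread, reading 0.32 and 1.94. Myeloid cells express Lgals3 and Cd200r1 too. The lower myeloid marker values of R397W cells given above (Lyz2 at -2.66) stand beside both R397W differences. Both genes also read lower than WT hCD2 in A384T and I363V cells, where no gene of the myeloid list was called. The part of myeloid cells in these differences was not tested.

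**Figure D5:**
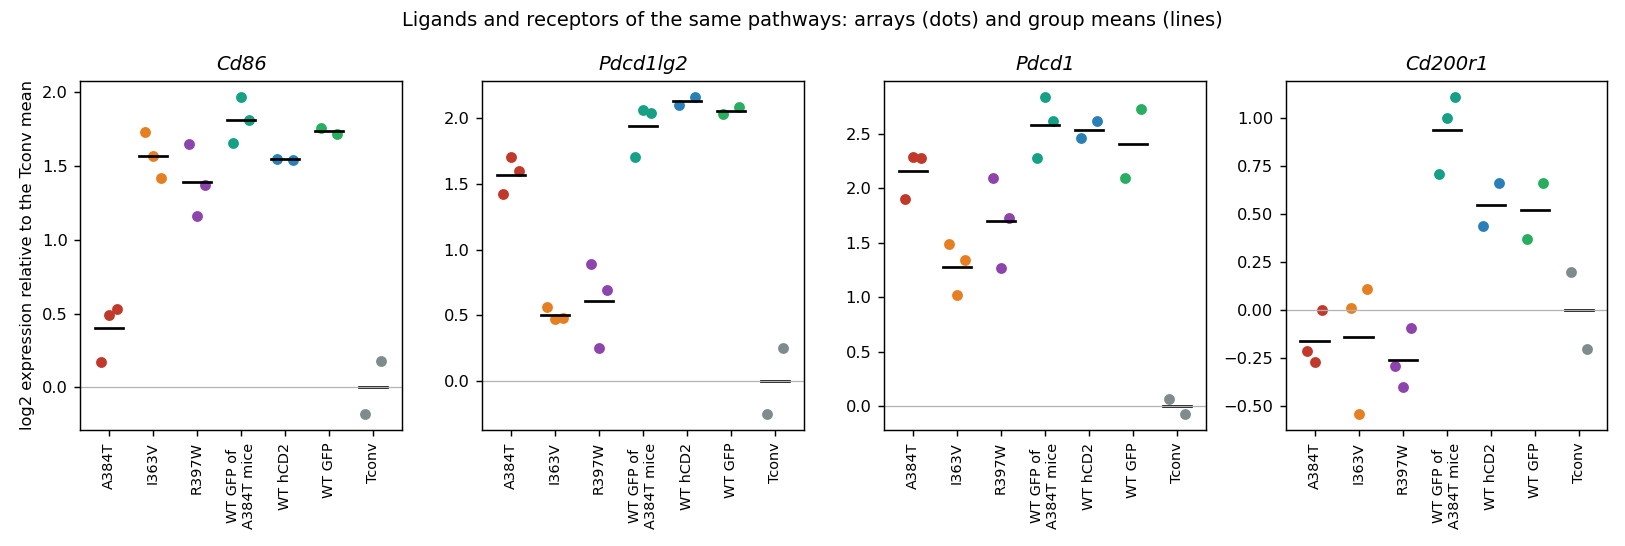
Cd86, Pdcd1lg2, Pdcd1 and Cd200r1 on each array (dots) with group means (lines), in log2 units relative to the Tconv mean; each panel has its own range. Among the Treg groups Cd86 was lowest in A384T, at 0.17 to 0.53, and Pdcd1lg2 was lowest in I363V and R397W, at 0.25 to 0.89.

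Signalling genes downstream of these receptors were read in the same way. Of 21 measured genes listed for CD28 signalling, 1 was lower in wild-type Treg cells than in Tconv, the adaptor Grap2 (-0.77). The share of all genes called in either direction was 5.84%. The list holds Pdk1, in the mouse the symbol of a pyruvate dehydrogenase kinase and not of a CD28 signalling gene, which was not called. Of 30 genes listed as negative regulators, adaptors or trafficking genes, 3 were higher in wild-type Treg cells than in Tconv. These were Sla (1.27), Sh2d1a (0.94) and Ptpn22 (0.35), against 3.81% of all genes called higher. In both lists 0 genes passed in any mutant against WT hCD2, where 0.28% of all genes were called in A384T, 0.912% in I363V and 2.26% in R397W cells, so lists of this size would hold few calls or none at those shares.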

How the data were processed

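Affymetrix arrays measured RNA of 18 sorted CD4 T cell samples. The deposited values are log2 expression from the authors' RMA (background correction, normalization between arrays and 1 summary per probe set), per the submitters' processing notes, which give no version. The log base follows the convention of RMA. In the deposited table each probe set is shifted so that the 2 Tconv arrays average 0, which leaves differences unchanged but removes levels. No filter on dim probe sets could therefore be used. The values ran from -5.80 to 7.59.

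Of 45101 probe sets, 34945 had 1 gene in the chip annotation, 932 had several, 9160 had none and 64 were controls, which were not used. This left 18193 genes, 9010 of them with more than 1 probe set. The 18 arrays were fitted together by group with limma 3.58.1 in R 4.3.3 (11 residual and 3.3 prior degrees of freedom). Tests were two-sided, and calls were made at p under 0.05 after Benjamini-Hochberg adjustment across the 18193 genes. The fit was tested on simulated data. The number of arrays limits the precision. Scan batches were not analysed here.

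Equal array numbers of A384T and A384T-mouse WT GFP deviated together (r = 0.686, 0.654 and 0.576, against -0.455 to -0.164 for unequal numbers). Deviations from a group mean sum to 0 over its arrays, so the negative values follow from the positive ones. From the values at equal numbers alone the arrays were taken as pairs. The labels do not tell what equal numbers share. Named genes were the 10 members, called genes of the lists and the 3 genes most like each member. Members and lists were chosen with earlier results of these data known. The alternatives were leaving out each array, fitting the compared groups alone, the mean of all probe sets of a gene, arrays centred on their median, robust eBayes, the array number as a block, and other probe sets. A further one was chosen after seeing the data. Promoter windows are from RefSeq (GRCm38.p6).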

Additional observations from a re-analysis of the deposited data

How the results depend on the processing

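No called member changed direction under any alternative tried. Leaving out 1 array at a time gave 3 to 6 members between wild-type Treg cells and Tconv, 0 to 1 between A384T and WT hCD2 cells, 1 to 2 between I363V and WT hCD2 cells, 2 to 3 between R397W and WT hCD2 cells and 1 to 3 between A384T and R397W cells. Where this left 1 array in a group, that array was assumed to vary like the others. The number of all genes called moved from fit to fit in each of these comparisons too. Between A384T and R397W cells it ran from 249 to 647, against 569 with all arrays. A change in the number of members called is therefore not particular to the members. Fitting only the groups compared gave 1 member in I363V and 1 in R397W against WT hCD2 cells. The calls lost there were Havcr2 in I363V (adjusted p = 0.321) and R397W (0.313) and Icos in R397W (0.232). Icos between wild-type Treg cells and Tconv (0.0891), Ctla4 between A384T and R397W (0.0704) and Cd200 between R397W and Tconv (0.192) were lost under it too, which has fewer arrays to estimate the spread. The mean of all probe sets gave 1 member between A384T and A384T-mouse WT GFP cells and 2 between A384T and I363V cells, Icos being the added gene in both. Leaving out array 2 of both I363V and R397W, chosen after seeing the data, gave 1 member between I363V and WT hCD2 cells, since Havcr2 missed the threshold (-0.81, adjusted p = 0.0552). It also ended the call of Icos between A384T and R397W (adjusted p = 0.0647).

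Between I363V and R397W cells, the difference of Btla ran from -0.09 (without R397W array 3) to 0.33 (without R397W array 2), against 0.16 with all arrays, and that of Lag3 was -0.07 without both arrays 2, against 0.53 with them. Cd28 in I363V against WT hCD2 cells turned to -0.06 on its other probe set. None of the 3 was called, and the cause was not tested.

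With the replicate block, 1 member, Cd83, was called between A384T and A384T-mouse WT GFP cells. In the other comparisons the numbers were not accepted as pairs. Equal numbers of WT GFP and Tconv correlated at 0.711, but with 2 arrays a group there are fewer than 3 pairs, and the labels give no shared origin. There the block gave 5 members between wild-type Treg cells and Tconv and 3 between A384T and R397W cells, as without it, and 4 between A384T and Tconv, where Icos was lost (1.08, adjusted p = 0.123). In the comparisons in which it was run it changed no other call of a member. No paired analysis by equal number was possible against WT hCD2 cells, because their arrays share fewer than 2 numbers with any other group. Arrays 3 and 4 of WT hCD2 ranked like arrays 1 and 2 of WT GFP in every member but Cd83. Whether these arrays pair was not tested, and they were fitted as independent. Icos between A384T and Tconv was also not called on its other probe sets (0.76, adjusted p = 0.179, and 0.53, adjusted p = 0.0793). Lag3 between A384T and Tconv was called when only these groups were fitted (1.37, adjusted p = 0.0131).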
